A study of Homo sapiens with 10 samples.

Results

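The genes described here are 10 members of the NRF2 pathway, the response by which cells raise their defence against oxidants and reactive electrophiles. They are HMOX1, NFE2L2, KEAP1, BACH1, NQO1, GCLM, GCLC, TXNRD1, SRXN1 and SLC7A11, found by their symbols among 52402 gene symbols, and all 10 passed the filter on low counts. HMOX1 was chosen by measured values, its opposite changes with the miR-200b-3p mimic and the miR-92b inhibitor in these same libraries, so its values in those groups and against miRcontrol are descriptions without a test. The other 9 were taken for their place in the pathway, with earlier results of these libraries known. BEAS2B, an immortalized cell line from human bronchial epithelium, labelled as normal and wild type, received a scrambled miRNA (miRcontrol), the miR-3124-5p mimic (miR3124_mimic), the miR-200b-3p mimic (miR200b_mimic), the miR-92b inhibitor (miR92b_inhibitor) or the 3 together (3-miRNA mixed). A mimic is a synthetic copy of a mature miRNA and an inhibitor is a strand that pairs with one and blocks it. All groups, miRcontrol included, went through transfection with Lipofectamine 2000. The miRNAs and the control were used at 50 nM and RNA was taken after 48 h. The dose of each miRNA in the mixture is not given in the sources used here. Each group had 2 libraries, with 13587666 to 18503890 counts per library. No source used here states that the 2 libraries of a group came from separate transfections, so the p-values measure the spread between these libraries, which may be technical.

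NRF2, the protein made from NFE2L2, is a transcription factor that KEAP1 holds and hands over to a CUL3 ubiquitin ligase for destruction. Oxidants and electrophiles modify KEAP1, NRF2 then accumulates, pairs with a small MAF protein and binds antioxidant response elements in front of its target genes. BACH1 is a heme-sensing repressor that pairs with the same small MAF proteins at the same elements, and HMOX1 is its best known target. In airway epithelium this pathway is known for the defence against smoke and other inhaled oxidants.

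The mature miRNAs of the treatments are shown because their seeds (bases 2 to 8, in capitals) set the word searched for in the members' 3′UTRs. Both arms of miR-92b are given, since the labels do not state which arm the inhibitor pairs with. The sequences are from RefSeq (GRCh38.p14), 5′ to 3′. All 4 lie on chromosome 1, on the forward strand.
miR-3124-5p: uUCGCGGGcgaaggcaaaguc
miR-200b-3p: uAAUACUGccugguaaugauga
miR-92b-3p: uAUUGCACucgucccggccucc
miR-92b-5p: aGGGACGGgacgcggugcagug
The seeds are all different, so the treatments share no word. The word complementary to the miR-200b-3p seed, CAGTATT, was present in the 3′UTRs of HMOX1, GCLM and SLC7A11, as annotated for the longest coding transcript in GENCODE v29. Each site is printed with 15 bases before the word and 3 after it, with the word in capitals.
HMOX1, chr22:35394063-35394069, forward strand: gctcagcctcaaatgCAGTATTttt
GCLM, chr1:93885789-93885795, reverse strand: tctagatttttcaccCAGTATTttc
SLC7A11, chr4:138170628-138170634, reverse strand: aagatgttgttttgcCAGTATTaga
SLC7A11, chr4:138167545-138167551, reverse strand: taattttcatataaaCAGTATTttt
The HMOX1 word begins at base 465 of a 3′UTR of 616 bases. The SLC7A11 3′UTR is 7859 bases long, and the word at its base 1322 is the only 1 of the 4 that is followed by an A. Of the 12224 tested genes with a 3′UTR, 19.5% held CAGTATT. The miR-92b-3p word, GTGCAAT, was found in SRXN1 and SLC7A11 and in 13.1% of all these genes, and the miR-92b-5p word, CCGTCCC, in TXNRD1 and in 4.19%. The miR-3124-5p word, CCCGCGA, was found in none of the members and in 0.622% of all genes. A word in a 3′UTR is a match of letters and not a measured binding site.

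Levels are given as normalized CPM, counts of a gene over the total of its library, with edgeR's RLE factors, and they compare libraries, not genes. Changes are log2 fold changes with their standard error, and a gene was called where its p from the quasi-likelihood test of edgeR, Benjamini-Hochberg adjusted over 14884 genes, was under 0.05. All comparisons with miRcontrol share the same 2 control libraries.

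HMOX1 encodes heme oxygenase 1, which breaks heme down to biliverdin, iron and carbon monoxide. It lies at chr22:35380361-35394214 on the forward strand (GRCh38, ENSG00000100292.16) and shares no exonic base with another gene. The miRcontrol libraries held 28.3 and 25.7 CPM, and the miR3124_mimic libraries 21.2 and 22.1 CPM. The miR200b_mimic libraries held 7.93 and 10.5 CPM, from 106 and 183 counts, and the miR92b_inhibitor libraries 58.0 and 62.4 CPM, from 994 and 1139 counts. The 3-miRNA mixed libraries held 16.1 and 15.8 CPM. The order from low to high was miR200b_mimic, 3-miRNA mixed, miR3124_mimic, miRcontrol and miR92b_inhibitor, and no neighbours in this order overlapped. The highest group mean was 6.52 times the lowest, the widest range of the 10 genes. The groups at its ends are those that chose HMOX1, so this rank follows from the choice and is no result. In RNA from whole cultures, less RNA per cell and fewer cells that carry it cannot be told apart.

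Against miRcontrol, the log2 fold change of HMOX1 was -1.53 ± 0.11 (SE) in miR200b_mimic and 1.16 ± 0.08 in miR92b_inhibitor, the 2 values that chose it. It was -0.76 ± 0.09 in the mixture and -0.32 ± 0.09 in miR3124_mimic, against control libraries that also served the choice. The 3-miRNA mixed group and miR3124_mimic hold none of the libraries that chose HMOX1. In the comparison between them HMOX1 was lower in the mixture by a log2 fold change of -0.44 ± 0.10 (edgeR adjusted p = 0.000173). Both mixture libraries lay below both miR3124_mimic libraries. Under the 16 alternatives of processing and left-out libraries this value stayed between -0.47 and -0.40 and was called in each. The mixture does contain the miR-200b-3p mimic and the miR-92b inhibitor, whose changes chose HMOX1. The fit also took its dispersion from all 10 libraries. This comparison is therefore not free of the choice.

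**Figure D1:**
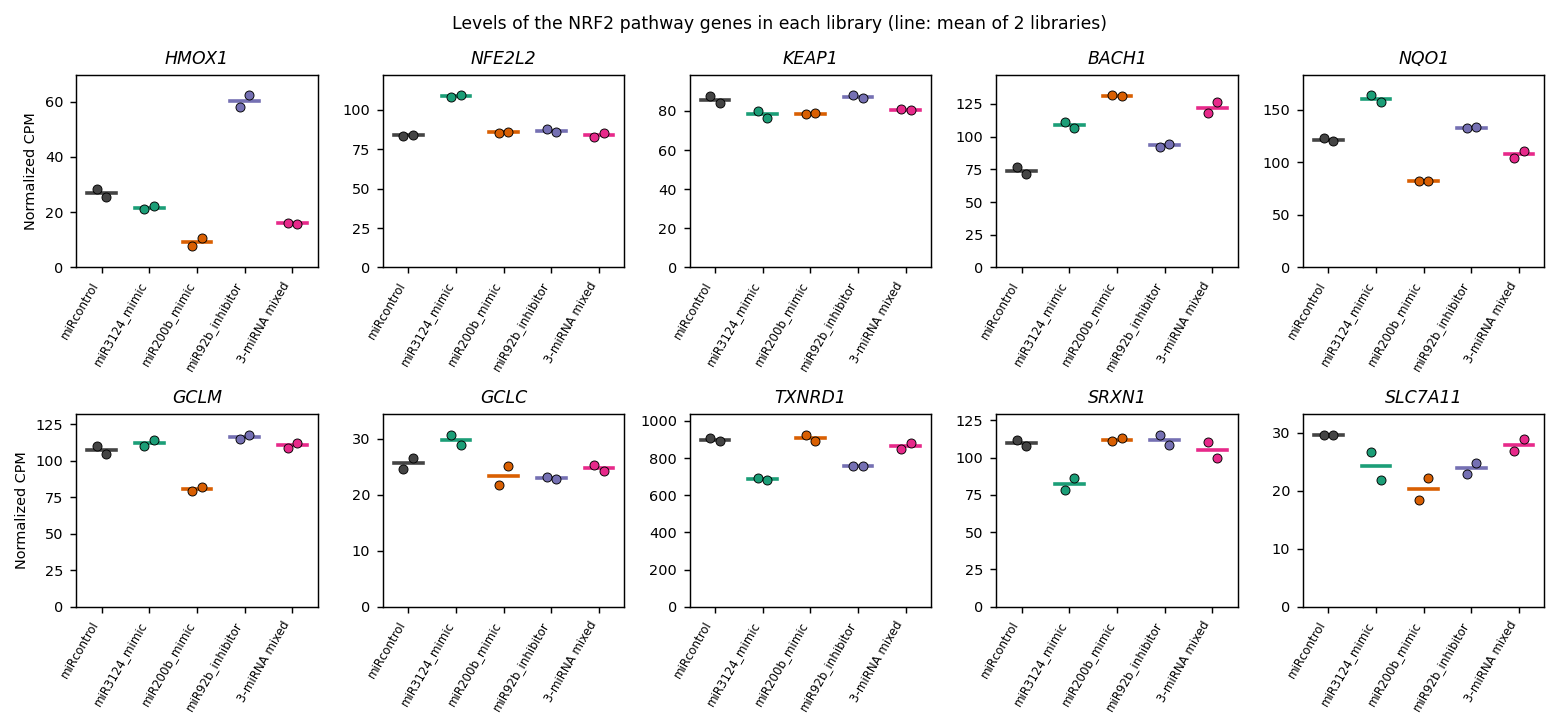
Normalized CPM (vertical axes, from 0, a separate scale for each gene) of the 10 genes in the 10 libraries, with a point per library and a line at the mean of the 2 libraries of a group. HMOX1 ran from 7.93 CPM in a miR200b_mimic library to 62.4 CPM in a miR92b_inhibitor library, the groups that chose it. KEAP1 stayed between 76.6 and 88.1 CPM.

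Among the regulators, BACH1 rose in all 4 miRNA groups, NFE2L2 rose with miR3124_mimic, and KEAP1 moved by at most 0.13 on the log2 scale. BACH1, the repressor, held 76.6 and 71.4 CPM in miRcontrol, 111 and 107 CPM in miR3124_mimic, 132 and 131 CPM in miR200b_mimic, 92.5 and 94.2 CPM in miR92b_inhibitor and 118 and 126 CPM in the 3-miRNA mixed group. Its 5 groups did not overlap. The log2 fold change was 0.83 ± 0.05 (edgeR adjusted p = 7.15e-19) in miR200b_mimic, the largest change among the 9 members other than HMOX1, 0.72 ± 0.05 (adjusted p = 5.59e-17) in the mixture, 0.55 ± 0.05 (adjusted p = 4.57e-13) in miR3124_mimic and 0.33 ± 0.05 (adjusted p = 7.93e-07) in miR92b_inhibitor. BACH1 was thus higher than in miRcontrol both in the 3 groups whose HMOX1 level lay below the control and in miR92b_inhibitor, whose HMOX1 level lay above it. Among the 4 miRNA groups, the order of BACH1 was the reverse of that of HMOX1. The difference of BACH1 between the mixture and miR200b_mimic was not called (-0.10 ± 0.05, edgeR adjusted p = 0.0742). Over the 10 libraries the log2 CPM of the 2 genes had a Pearson's r of -0.673 and a Spearman's rho of -0.879, as descriptions. Other members had a Pearson's r with HMOX1 of similar size: 0.783 for KEAP1, 0.782 for GCLM and 0.672 for NQO1. The remaining members lay between -0.493 (TXNRD1) and 0.322 (SLC7A11). The libraries that chose HMOX1 are among these 10. A link between BACH1 and HMOX1 was not tested. The BACH1 3′UTR of 3315 bases held none of the 4 words.

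NFE2L2, the gene of NRF2 itself, held 83.6 and 84.3 CPM in miRcontrol and 108 and 109 CPM in miR3124_mimic. The other 6 libraries lay between 83.0 and 87.8 CPM, close to the control. The rise with miR3124_mimic was 0.37 ± 0.05 on the log2 scale (edgeR adjusted p = 5.60e-09), and the other 3 groups had log2 fold changes of 0.03 ± 0.05 in miR200b_mimic, 0.05 ± 0.05 in miR92b_inhibitor and 0.00 ± 0.05 in the mixture (adjusted p from 0.479 to 0.975). These are mRNA levels, and NRF2 is controlled largely through the stability of its protein, which was not measured.

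KEAP1, the adaptor that presents NRF2 to the ligase, held 87.5 and 83.9 CPM in miRcontrol, 80.0 and 76.6 CPM in miR3124_mimic, 78.5 and 78.9 CPM in miR200b_mimic, 88.1 and 86.6 CPM in miR92b_inhibitor and 81.0 and 80.4 CPM in the mixture. Its groups spanned 1.11-fold, the narrowest range of the 10. It passed the threshold in miR3124_mimic, at -0.13 ± 0.05 (edgeR adjusted p = 0.0259), and in miR200b_mimic, at -0.12 ± 0.05 (adjusted p = 0.0491). The call in miR200b_mimic was lost in 15 of 16 alternatives, among them leaving out any 1 of the 10 libraries (adjusted p up to 0.302) and the DESeq2 test (adjusted p = 0.14). The call in miR3124_mimic was lost without miRcontrol library 1 (adjusted p = 0.197) or without miR3124_mimic library 2 (adjusted p = 0.215, the highest of its 16 alternatives). It was also lost with library totals only (edgeR adjusted p = 0.0729) and with the DESeq2 test (adjusted p = 0.0924).

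**Figure D2:**
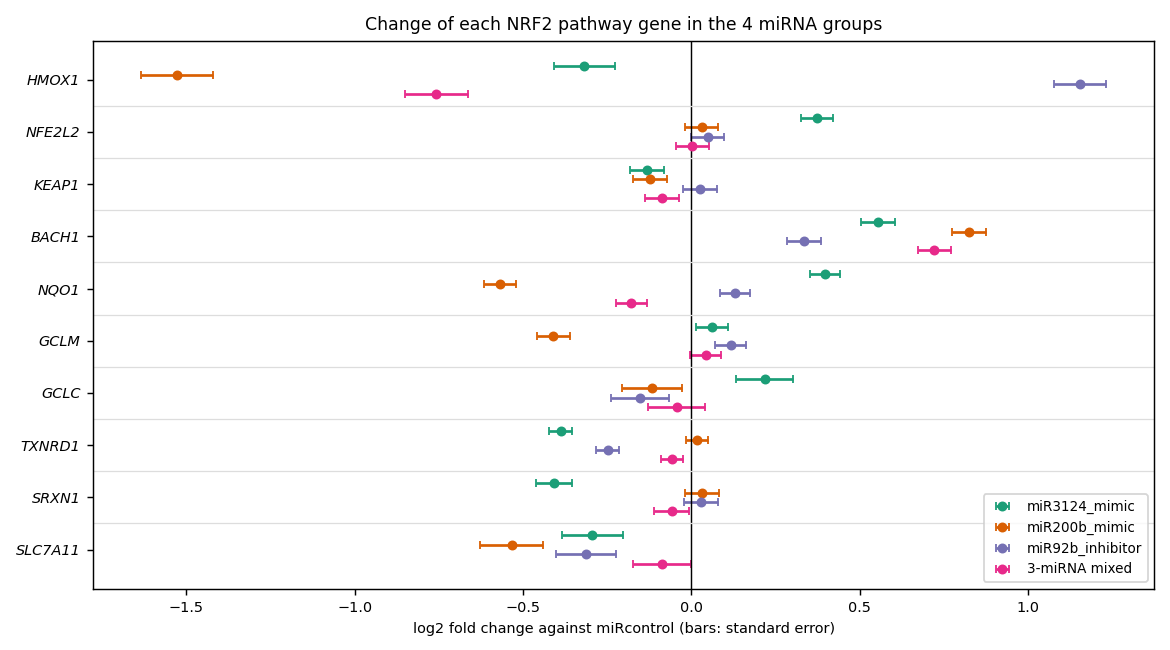
Log2 fold change against miRcontrol (horizontal axis) of the 10 genes in the 4 miRNA groups, as points with bars of 1 standard error. HMOX1 reached -1.53 and 1.16 in the groups that chose it. The other 9 genes, not chosen by these values, stayed within 0.83 of no change. BACH1 lay to the right of 0 in all 4 groups.

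NQO1, a quinone reductase and a standard readout of NRF2 activity, rose with miR3124_mimic and fell with miR200b_mimic. Its libraries held 123 and 120 CPM in miRcontrol, 164 and 157 CPM in miR3124_mimic, 81.8 and 82.0 CPM in miR200b_mimic, 133 and 133 CPM in miR92b_inhibitor and 104 and 111 CPM in the 3-miRNA mixed group. The 5 groups did not overlap, and their means spanned 1.96-fold, the second widest range after HMOX1. The log2 fold change was 0.40 ± 0.04 (edgeR adjusted p = 1.43e-10) in miR3124_mimic and -0.57 ± 0.05 (adjusted p = 8.40e-14) in miR200b_mimic. Smaller changes of 0.13 ± 0.04 in miR92b_inhibitor (adjusted p = 0.0193) and of -0.18 ± 0.05 in the mixture (adjusted p = 0.00125) also passed. The call in miR92b_inhibitor was lost without miRcontrol library 2 (adjusted p = 0.153) or without either miR92b_inhibitor library (adjusted p = 0.0749 without library 1 and 0.0857 without library 2), and its 16 alternatives reached at most that adjusted p of 0.153. With the DESeq2 test this call was lost as well (adjusted p = 0.0617). The call in the mixture was lost without 3-miRNA mixed library 1 (-0.13, adjusted p = 0.0623, the highest of its alternatives). NQO1 holds none of the 4 words in its 3′UTR.

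The glutathione genes did not move together. GCLM and GCLC encode the modifier and the catalytic subunit of glutamate cysteine ligase, the enzyme that limits glutathione synthesis, and SLC7A11 encodes the cystine importer xCT that supplies its cysteine. GCLM held 110 and 105 CPM in miRcontrol, 110 and 114 CPM in miR3124_mimic, 79.4 and 82.0 CPM in miR200b_mimic, 115 and 118 CPM in miR92b_inhibitor and 109 and 112 CPM in the mixture. The miR200b_mimic libraries lay far below the other 8, and the miR92b_inhibitor libraries just above the rest. In miR200b_mimic GCLM fell by 0.41 ± 0.05 on the log2 scale (edgeR adjusted p = 1.85e-09). A small rise in miR92b_inhibitor, 0.12 ± 0.05 (adjusted p = 0.0430), was lost without miRcontrol library 2 (0.08, adjusted p = 0.331, the highest of its 16 alternatives), without either miR92b_inhibitor library (adjusted p = 0.0699 and 0.231) or without miR3124_mimic library 1 (adjusted p = 0.0527). Leaving out the filter on low counts (edgeR adjusted p = 0.0828) or using the DESeq2 test (adjusted p = 0.118) also ended this call.

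GCLC held 24.6 and 26.6 CPM in miRcontrol and 30.7 and 28.8 CPM in miR3124_mimic, a rise of 0.22 ± 0.08 on the log2 scale (edgeR adjusted p = 0.0275). This call was lost without miRcontrol library 1 (adjusted p = 0.226, the highest of its 16 alternatives) or without miR3124_mimic library 1 (adjusted p = 0.18). It was also lost without the filter on low counts (edgeR adjusted p = 0.0607) and with the DESeq2 test (adjusted p = 0.119). The other 6 libraries lay between 21.7 and 25.3 CPM, neighbouring groups overlapped, and the log2 fold changes were -0.12 ± 0.09 in miR200b_mimic, -0.15 ± 0.09 in miR92b_inhibitor and -0.04 ± 0.08 in the mixture, none of them called (adjusted p from 0.176 to 0.728). In miR200b_mimic the modifier subunit was thus called and the catalytic subunit was not, a difference that was not itself tested.

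SLC7A11 was lower than miRcontrol in each of the 3 single treatments. Its libraries held 29.6 and 29.7 CPM in miRcontrol, 26.8 and 21.9 CPM in miR3124_mimic, 18.4 and 22.3 CPM in miR200b_mimic, 22.9 and 24.8 CPM in miR92b_inhibitor and 26.9 and 29 CPM in the mixture. The control libraries lay above the other 8, with the mixture nearest to them. SLC7A11 fell by 0.53 ± 0.09 on the log2 scale in miR200b_mimic (edgeR adjusted p = 7.08e-06), by 0.31 ± 0.09 in miR92b_inhibitor (adjusted p = 0.00466) and by 0.29 ± 0.09 in miR3124_mimic (adjusted p = 0.00588), while in the mixture the log2 value was -0.09 ± 0.09 (adjusted p = 0.455). The fall in miR3124_mimic rested on library 2: without it the log2 fold change was -0.15 (adjusted p = 0.275, the highest of its 16 alternatives). The fall in miR92b_inhibitor was not called without its library 1 (-0.26, adjusted p = 0.074, the highest of its alternatives).

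TXNRD1 and SRXN1, which serve the thioredoxin system, were lowest with miR3124_mimic. TXNRD1, thioredoxin reductase 1, keeps thioredoxin reduced, and it held 908 and 891 CPM in miRcontrol, 693 and 682 CPM in miR3124_mimic, 927 and 894 CPM in miR200b_mimic, 755 and 759 CPM in miR92b_inhibitor and 849 and 880 CPM in the mixture. It fell by 0.39 ± 0.03 on the log2 scale in miR3124_mimic (edgeR adjusted p = 1.16e-13) and by 0.25 ± 0.03 in miR92b_inhibitor (adjusted p = 6.60e-08), and it had log2 fold changes of 0.02 ± 0.03 in miR200b_mimic (adjusted p = 0.725) and -0.06 ± 0.03 in the mixture (adjusted p = 0.17). The miRcontrol and miR200b_mimic libraries overlapped, and the other groups stood apart. SRXN1, sulfiredoxin, restores peroxiredoxins that peroxide has inactivated, and it held 112 and 108 CPM in miRcontrol and 78.3 and 86.6 CPM in miR3124_mimic. The other 6 libraries held 100 to 115 CPM, around the control. SRXN1 fell by 0.41 ± 0.05 on the log2 scale in miR3124_mimic (edgeR adjusted p = 7.87e-09), and the other 3 groups had log2 fold changes between -0.06 and 0.03 (adjusted p from 0.379 to 0.718). In GENCODE v29, 2292 of the 2698 exonic bases of SRXN1 are shared with AL121758.1 on the same strand, so its counts are uncertain. NFE2L2, BACH1, NQO1, GCLC and SLC7A11 share 347 to 1298 exonic bases with other annotated genes, and the strand setting of the counting is not given in the sources used here.

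Counted over the 9 members other than HMOX1, 8 were called in miR3124_mimic, 4 higher (BACH1, NFE2L2, NQO1 and GCLC) and 4 lower (TXNRD1, SRXN1, SLC7A11 and KEAP1), where 25.7% of all tested genes were called higher and 25.3% lower. In miR200b_mimic 5 were called, BACH1 higher and NQO1, GCLM, SLC7A11 and KEAP1 lower, beside 21.4% of all genes higher and 19.1% lower. In miR92b_inhibitor 5 were called, BACH1, NQO1 and GCLM higher and TXNRD1 and SLC7A11 lower, beside 17.5% higher and 18.2% lower. In the mixture 2 were called, BACH1 higher and NQO1 lower, beside 21.5% higher and 21.1% lower. The miR200b_mimic and miR92b_inhibitor contrasts with miRcontrol are those that chose HMOX1, and nothing about the set is read from their counts. None of the 36 values of these 9 genes against miRcontrol reached a 2-fold change. For miR3124_mimic their median log2 fold change was 0.06, for miR200b_mimic -0.12, for miR92b_inhibitor 0.03 and for the mixture -0.06, beside medians of all genes between -0.01 and 0.00.

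The direct comparison of miR92b_inhibitor with miR200b_mimic, the groups at the ends of the HMOX1 order, called 5 of the 9, NQO1, GCLM and KEAP1 higher in miR92b_inhibitor and BACH1 and TXNRD1 lower. Over all genes 24.8% were called higher and 25.6% lower. The log2 difference was 0.70 ± 0.05 for NQO1 (edgeR adjusted p = 4.04e-17), 0.53 ± 0.05 for GCLM (adjusted p = 7.51e-13), -0.49 ± 0.05 for BACH1 (adjusted p = 4.21e-12) and -0.27 ± 0.03 for TXNRD1 (adjusted p = 4.77e-09). KEAP1 differed by 0.15 ± 0.05 (adjusted p = 0.0123), a call that was lost without either miR200b_mimic library (adjusted p = 0.0527 and 0.0621) or without miR92b_inhibitor library 1 (adjusted p = 0.0749, the highest of its 16 alternatives). The DESeq2 test did not call KEAP1 here (adjusted p = 0.0527). HMOX1 differed by 2.68 on the same scale, as a description.

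The mixture was also set beside each of its parts. Against miR3124_mimic, 6 of the 9 members were called: TXNRD1, SRXN1 and BACH1 were higher in the mixture and NQO1, NFE2L2 and GCLC lower, while over all genes 25.3% were higher and 23.8% lower. NQO1 differed by -0.57 ± 0.04 (edgeR adjusted p = 3.59e-15), NFE2L2 by -0.37 ± 0.05 (adjusted p = 6.56e-09), TXNRD1 by 0.33 ± 0.03 (adjusted p = 1.94e-11) and SRXN1 by 0.35 ± 0.05 (adjusted p = 2.87e-07) on the log2 scale. The smaller differences of BACH1 (0.17 ± 0.05, adjusted p = 0.00260) and GCLC (-0.26 ± 0.08, adjusted p = 0.00821) each depended on 2 libraries: BACH1 was not called without miR3124_mimic library 2 (adjusted p = 0.0584) or 3-miRNA mixed library 2 (adjusted p = 0.0951), and GCLC was not called without miR3124_mimic library 1 (adjusted p = 0.0897) or 3-miRNA mixed library 2 (adjusted p = 0.0735). Of all alternatives, 0.0951 and 0.0897 were the highest for these genes. The DESeq2 test did not call GCLC either (adjusted p = 0.0562).

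Against miR200b_mimic, 3 of the 9 members were called, all higher in the mixture, beside 18.2% of all genes higher and 20.4% lower. They were GCLM (0.45 ± 0.05, edgeR adjusted p = 1.50e-10), NQO1 (0.39 ± 0.05, adjusted p = 6.14e-09) and SLC7A11 (0.45 ± 0.09, adjusted p = 0.000139), which were also lower in miR200b_mimic than in the control. Against miR92b_inhibitor, 4 were called, beside 19.7% of all genes higher and 19.9% lower: BACH1 (0.39 ± 0.05, adjusted p = 3.50e-09), TXNRD1 (0.19 ± 0.03, adjusted p = 8.00e-06) and SLC7A11 (0.23 ± 0.09, adjusted p = 0.0399) were higher and NQO1 (-0.31 ± 0.05, adjusted p = 2.06e-07) was lower in the mixture. The SLC7A11 call was lost without either miR92b_inhibitor library (adjusted p = 0.253 and 0.0519) or without 3-miRNA mixed library 2 (adjusted p = 0.267, the highest of its alternatives). It was also lost without the filter on low counts (edgeR adjusted p = 0.0539) and with the DESeq2 test (adjusted p = 0.16). HMOX1 was higher in the mixture than in miR200b_mimic by 0.77 and lower than in miR92b_inhibitor by a log2 difference of -1.91, as descriptions.

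A further comparison, added after the data had been seen, set the change in the mixture against the sum of the 3 single changes, all on the log2 scale and in the same fit. It called 6 of the 9 members, SLC7A11, TXNRD1, SRXN1 and GCLM above the sum and BACH1 and NFE2L2 below it, while 11.7% of all genes lay above and 10.1% below. For BACH1 the single changes added up to 1.71 and the mixture reached 0.72, a difference of -0.99 ± 0.10 (edgeR adjusted p = 1.00e-10). For SLC7A11 the sum was -1.14 and the mixture -0.09, a difference of 1.05 ± 0.18 (adjusted p = 1.38e-05), and for TXNRD1 the sum was -0.62 and the mixture -0.06 (0.56 ± 0.07, adjusted p = 6.95e-09). NFE2L2 had a sum of 0.45 and a mixture value of 0.00 (-0.45 ± 0.10, adjusted p = 0.000426). In each of these 4 the mixture lay nearer to miRcontrol than the sum did.

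The differences of GCLM (0.27 ± 0.09, edgeR adjusted p = 0.0308) and SRXN1 (0.29 ± 0.10, adjusted p = 0.0363) from the sum were each lost in 7 of 15 alternatives, among them without miRcontrol library 1 (adjusted p = 0.296 for GCLM and 0.248 for SRXN1, the highest of each). For GCLM the other left-out libraries that ended the call were the first of miR3124_mimic, miR200b_mimic and miR92b_inhibitor and the second of the mixture (adjusted p from 0.0608 to 0.0816). For SRXN1 they were miRcontrol library 2, the first of miR3124_mimic, miR200b_mimic and the mixture, and miR92b_inhibitor library 2 (adjusted p from 0.0591 to 0.165). NQO1 (-0.14 ± 0.09, adjusted p = 0.330), KEAP1 (0.14 ± 0.10, adjusted p = 0.356) and GCLC (0.01 ± 0.17, adjusted p = 0.986) were not called. For HMOX1, whose parts chose it, the sum was -0.69 and the mixture -0.76. The dose of each miRNA in the mixture is unknown, and dose and combination cannot be told apart.

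**Figure D3:**
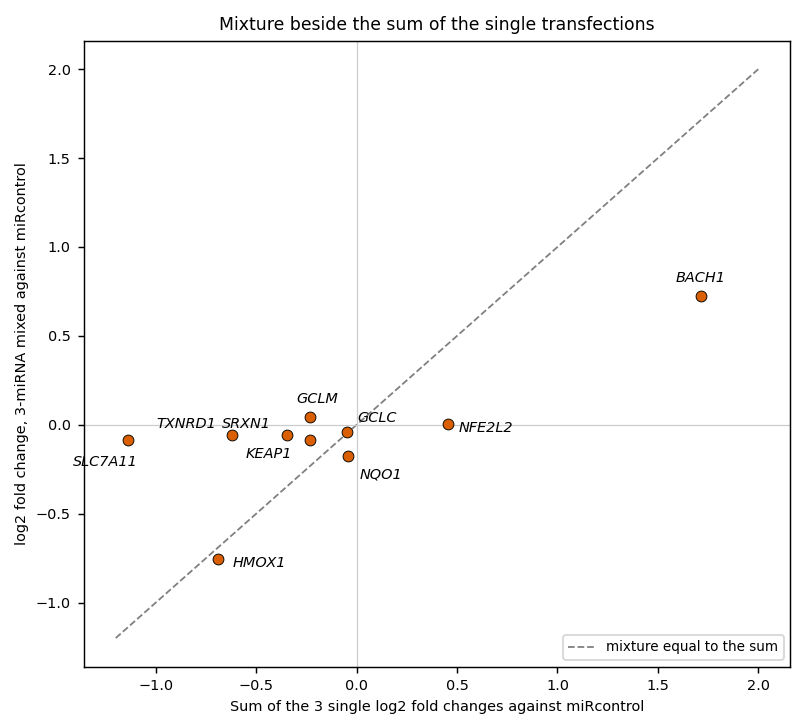
Log2 fold change of the 10 genes in the 3-miRNA mixed group (vertical axis) against the sum of their 3 single log2 fold changes (horizontal axis), all against miRcontrol, with a dashed line where both are equal. BACH1 (1.71 and 0.72) lies below the line, SLC7A11 (-1.14 and -0.09) above it and HMOX1 (-0.69 and -0.76) next to it.

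The antioxidant response element core TGACNNNGC was searched on both strands of the members' promoters, since the pathway acts through it. The RefSeq table (GRCh38.p14, 250 bases before the start of a gene to 50 after it) holds 8 of the 10 members, without HMOX1 and SLC7A11. The core was present in GCLM and TXNRD1 and in 13.3% of all 35116 promoters. The matches are printed in capitals with 10 bases to each side, in the direction of the gene.
GCLM, chr1:93909446-93909474, reverse strand: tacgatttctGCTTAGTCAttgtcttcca
TXNRD1, chr12:104215670-104215698, forward strand: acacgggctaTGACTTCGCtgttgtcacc
TXNRD1, chr12:104215761-104215789, forward strand: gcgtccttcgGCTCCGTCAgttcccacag
The GCLM match begins 34 bases before the start, and those of TXNRD1 begin 99 and 8 bases before it. GCLM was lowest in miR200b_mimic and TXNRD1 in miR3124_mimic. The letters are no measured binding, and elements outside this window were not searched. The first start listed for a gene was used, and its other starts were not searched. The windows of NFE2L2, KEAP1, BACH1, NQO1 and GCLC lie inside the span that GENCODE v29 gives these genes. That of BACH1 begins at chr21:29304954, where the gene begins at chr21:29194071.

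Set per kilobase of merged exons in miRcontrol, the scale on which genes can be compared, TXNRD1 had the highest level, 134 ± 1.70 CPM per kb (SD, n = 2 libraries). SRXN1 followed at 40.6 ± 1.02, NQO1 at 37.3 ± 0.673, KEAP1 at 22.8 ± 0.677, GCLM at 19.8 ± 0.687, NFE2L2 at 14.0 ± 0.0837, HMOX1 at 11.2 ± 0.784 and BACH1 at 9.59 ± 0.471 CPM per kb. SLC7A11 (3.08 ± 0.00542) and GCLC (2.96 ± 0.164) were lowest and did not differ beyond their spread. HMOX1 stood at rank 7 of the 10 in miRcontrol and at rank 4 in miR92b_inhibitor, with 25.0 ± 1.28 CPM per kb, and stood at 3.84 ± 0.765 in miR200b_mimic. With the length of the longest transcript in place of merged exons, NQO1 passed SRXN1, NFE2L2 passed KEAP1 and GCLC passed SLC7A11.

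The rest of the pathway was taken from 6 lists of 91 genes (regulators, heme and iron, glutathione, thioredoxin, NADPH supply and detoxification), of which 81 were tested. These lists were drawn up with earlier results of the same libraries known. In miR3124_mimic 30 of the 81 were called higher and 22 lower (median log2 fold change 0.11), with miR200b_mimic 26 and 19 (0.03), with miR92b_inhibitor 21 and 19 (0.00) and in the mixture 26 and 21 (-0.04). Over all tested genes, 25.7% were higher and 25.3% lower in miR3124_mimic, 21.4% and 19.1% with miR200b_mimic, 17.5% and 18.2% with miR92b_inhibitor and 21.5% and 21.1% in the mixture, and the medians lay between -0.01 and 0.00. No list was tested as a set.

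FTL and ABCC3 had the largest changes of the listed genes with miR3124_mimic. FTL, the light chain of the iron store ferritin, held 675 and 744 CPM in miRcontrol and 217 and 227 CPM in miR3124_mimic, a log2 fold change of -1.67 ± 0.04 (edgeR adjusted p = 1.80e-34). It was also lower in miR200b_mimic (512 and 527 CPM, log2 fold change -0.45 ± 0.04, adjusted p = 7.35e-14) and in the mixture (565 and 577 CPM, -0.31 ± 0.04, adjusted p = 1.67e-09) and higher in miR92b_inhibitor (1018 and 1045 CPM, 0.54 ± 0.04, adjusted p = 2.61e-16). FTH1, the heavy chain, chosen here after its values were seen, had log2 fold changes of -0.40, -0.29, 0.20 and -0.15 in miR3124_mimic, miR200b_mimic, miR92b_inhibitor and the mixture, all called. Both ferritin genes thus lay on the same side of the control as HMOX1 in each group, but FTL was lowest in miR3124_mimic and HMOX1 in miR200b_mimic. Near-identical pseudogene copies of both make their counts uncertain.

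Over the 17 tested heme and iron genes, 4 were called higher and 8 lower in miR3124_mimic, 5 and 3 with miR200b_mimic, 6 and 2 with miR92b_inhibitor and 5 and 7 in the mixture, beside the 25.7% and 25.3%, 21.4% and 19.1%, 17.5% and 18.2%, and 21.5% and 21.1% of all genes. BLVRB, a biliverdin reductase, fell from 23.9 and 25.8 CPM to 14.1 and 17.1 CPM in miR3124_mimic (-0.66 ± 0.10, edgeR adjusted p = 6.11e-07). It was also called lower in the mixture (-0.39 ± 0.10, adjusted p = 0.00107). HMOX2, the constitutive heme oxygenase, was listed with 0 to 4 counts in every library and was not tested. The counting tool and its handling of overlapping genes are not given in the sources used here, so this count is uncertain and does not show that the gene is silent.

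Of the 16 regulators, 6 were called higher and 5 lower in miR3124_mimic, 7 and 3 with miR200b_mimic, 6 and 4 with miR92b_inhibitor and 7 and 3 in the mixture, where all genes gave 25.7% and 25.3%, 21.4% and 19.1%, 17.5% and 18.2%, and 21.5% and 21.1%. BACH2, a relative of BACH1, stood at 2.75 and 1.19 CPM in miRcontrol, 5.19 and 5.09 CPM in miR3124_mimic (1.37 ± 0.28, edgeR adjusted p = 3.95e-05) and 0.467 and 1.15 CPM in miR92b_inhibitor (-1.27 ± 0.38, adjusted p = 0.00614). At this level 1 library decides the value: the rise was 2.10 without miRcontrol library 1 and 0.90 without library 2, and the fall was -0.54 without miRcontrol library 1 (adjusted p = 0.436, the highest of its 16 alternatives), -0.78 without miR92b_inhibitor library 1 (adjusted p = 0.159) and -2.07 without its library 2. SESN2, a stress protein that promotes the breakdown of KEAP1, rose in miR200b_mimic from 22.1 and 20.9 CPM to 34.3 and 39.6 CPM (0.79 ± 0.08, adjusted p = 6.14e-11). Its libraries also held 34.12 and 32.82 CPM in the mixture, 28.07 and 29.45 CPM in miR92b_inhibitor and 20.28 and 21.73 CPM in miR3124_mimic. Among the small MAF partners, chosen here after their values were seen, MAFF rose in all 4 groups, by 0.82 in the mixture, 0.64 in miR92b_inhibitor, 0.54 in miR3124_mimic and 0.47 in miR200b_mimic (adjusted p at most 1.46e-06).

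**Figure D4:**
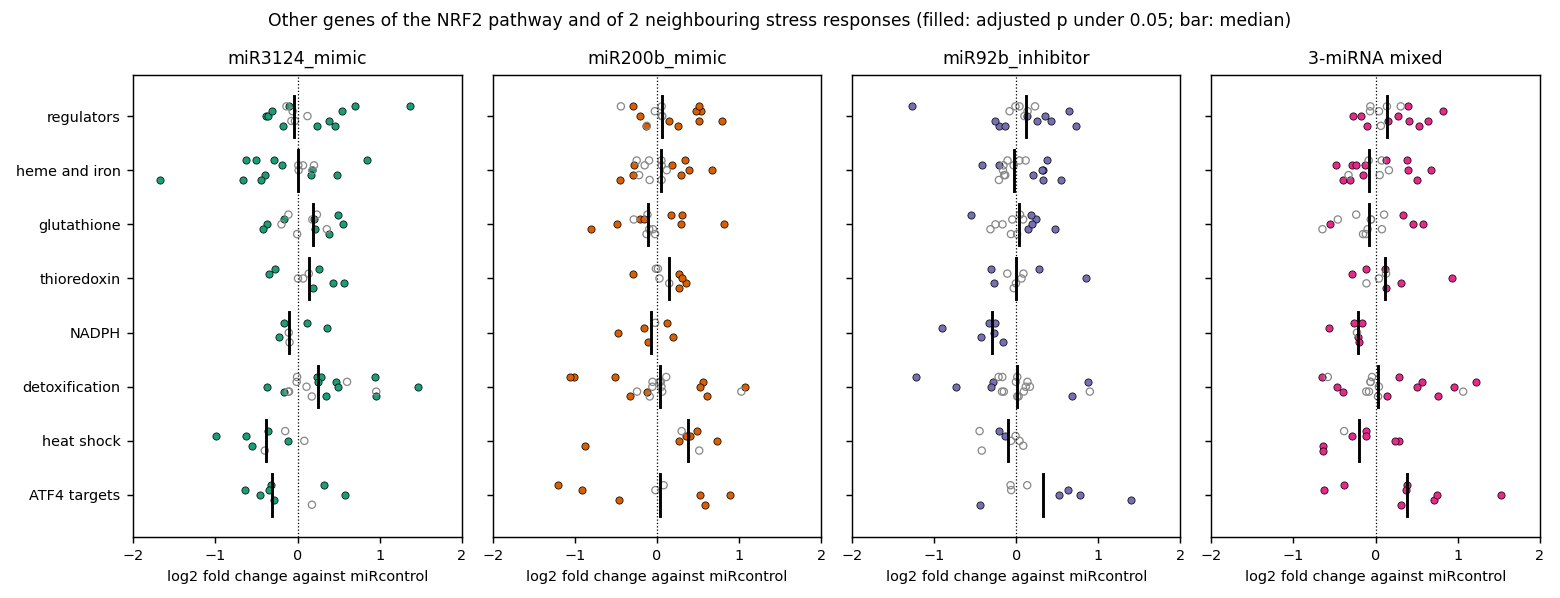
Log2 fold change against miRcontrol (horizontal axes) of the tested genes of 6 NRF2 pathway lists, for each miRNA group. Heat shock genes and ATF4 with its targets are also shown. Filled points are called genes, open points are the others and a bar marks the list's median. FTL stands apart at -1.67 with miR3124_mimic, and the 6 NADPH genes all lie left of 0 with miR92b_inhibitor.

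The genes of NADPH supply, which feeds both the glutathione and the thioredoxin system, were all called lower in miR92b_inhibitor (6 of 6, median log2 fold change -0.30, beside 18.2% of all genes) and 5 of 6 were in the mixture (median -0.22, beside 21.1%). In miR3124_mimic 2 were higher and 2 lower (25.7% and 25.3% of all genes), and in miR200b_mimic 2 were higher and 3 lower (21.4% and 19.1%). IDH1, the cytosolic isocitrate dehydrogenase, fell from 70.8 and 70.4 CPM to 38.2 and 37.1 CPM in miR92b_inhibitor (-0.91 ± 0.06, edgeR adjusted p = 4.80e-17). IDH1 also fell in the mixture (-0.56 ± 0.06, edgeR adjusted p = 1.51e-11) and rose in miR3124_mimic (0.35 ± 0.05, edgeR adjusted p = 1.89e-07). Its small fall in miR200b_mimic (-0.15 ± 0.06, edgeR adjusted p = 0.0233) was lost in 5 of 16 alternatives. The fall of ME1, malic enzyme, in miR92b_inhibitor (-0.27 ± 0.11, adjusted p = 0.0488) was lost in 8 of 16 alternatives: without miRcontrol library 1 (-0.13, adjusted p = 0.518, the highest), without miR92b_inhibitor library 1 (-0.14, adjusted p = 0.462) and without miR200b_mimic library 1 (adjusted p = 0.0505) among them, and it was -0.42 without miR92b_inhibitor library 2. The fall of TALDO1, transaldolase, there (-0.16 ± 0.04, adjusted p = 0.00336) was lost without miRcontrol library 2 (adjusted p = 0.0608, the highest of its alternatives).

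Of 14 glutathione genes, 5 were called higher and 3 lower in miR3124_mimic, 4 and 4 with miR200b_mimic, 5 and 1 with miR92b_inhibitor and 3 and 1 in the mixture. The shares of all genes higher and lower were 25.7% and 25.3%, 21.4% and 19.1%, 17.5% and 18.2%, and 21.5% and 21.1% in that order, here and for the thioredoxin genes. GPX3, a secreted glutathione peroxidase, rose in miR200b_mimic from 4.81 and 4.06 CPM to 8.97 and 6.90 CPM (0.82 ± 0.17, edgeR adjusted p = 0.000123). It was also called higher in miR3124_mimic (0.56 ± 0.18, adjusted p = 0.00744) and in the mixture (0.58 ± 0.17, adjusted p = 0.00567). Of 9 thioredoxin genes, 4 were higher and 2 lower in miR3124_mimic, 4 and 1 with miR200b_mimic, 2 and 2 with miR92b_inhibitor and 4 and 2 in the mixture. TXNIP, which binds thioredoxin and blocks it, rose from 95.6 and 92.9 CPM to 167 and 173 CPM in miR92b_inhibitor (0.85 ± 0.05, adjusted p = 8.05e-20) and to 179 and 182 CPM in the mixture (0.94 ± 0.05, adjusted p = 2.51e-22).

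Of 19 detoxification genes, 9 were higher and 2 lower in miR3124_mimic, 4 and 5 with miR200b_mimic, 2 and 4 with miR92b_inhibitor and 7 and 3 in the mixture, against 25.7% and 25.3%, 21.4% and 19.1%, 17.5% and 18.2%, and 21.5% and 21.1% of all genes. ABCC3, an exporter of conjugates, held 8.19 and 10.0 CPM in miRcontrol and rose by 1.46 ± 0.11 on the log2 scale in miR3124_mimic (24.6 and 25.4 CPM, edgeR adjusted p = 8.62e-16), by 1.07 ± 0.12 in miR200b_mimic (adjusted p = 1.13e-10) and by 0.96 ± 0.11 in the mixture (adjusted p = 1.24e-09), while it fell by 0.73 ± 0.14 in miR92b_inhibitor (adjusted p = 5.42e-05). Its direction against the control was thus opposite to that of HMOX1 in all 4 groups. ABHD4, a lipase of N-acyl phospholipids, rose in miR3124_mimic from 33.7 and 36.5 CPM to 67.7 and 68.0 CPM (0.95 ± 0.06, adjusted p = 1.87e-17). CBR3, a carbonyl reductase, fell from 20.7 and 22.0 CPM to 12.2 and 9.32 CPM in miR200b_mimic (-1.01 ± 0.11, adjusted p = 3.12e-10) and to 13.2 and 13.9 CPM in the mixture (-0.65 ± 0.10, adjusted p = 1.05e-06).

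PIR, pirin, and ABCC2, a relative of ABCC3, were at 3 CPM or less in the control. PIR held 2.46 and 2.45 CPM in miRcontrol, 4.44 and 4.98 CPM in miR3124_mimic (0.94 ± 0.25, edgeR adjusted p = 0.00143), 1.27 and 1.09 CPM in miR200b_mimic (-1.06 ± 0.32, adjusted p = 0.00622) and 1.05 and 1.04 CPM in miR92b_inhibitor (-1.23 ± 0.32, adjusted p = 0.00183). Its fall in miR200b_mimic was lost without library 2 of that group (adjusted p = 0.0711, the highest of its alternatives). ABCC2 held 1.49 and 1.01 CPM in miRcontrol, 2.16 and 2.46 CPM in miR92b_inhibitor (0.88 ± 0.31, adjusted p = 0.0243) and 3.04 and 2.85 CPM in the mixture (1.23 ± 0.30, adjusted p = 0.000756). The call in miR92b_inhibitor was lost without miRcontrol library 2 (adjusted p = 0.217, the highest of its alternatives) or without miR92b_inhibitor library 2 (adjusted p = 0.136). With the DESeq2 test it was lost too (adjusted p = 0.0953).

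Heat shock genes and ATF4 targets were counted beside the pathway because HMOX1 can also respond to heat shock and because SLC7A11 is also an ATF4 target. The lists also hold the heat shock factor HSF1 and ATF4 themselves. Of 8 heat shock genes, none was called higher and 5 lower in miR3124_mimic, 5 higher and 1 lower in miR200b_mimic, none higher and 2 lower in miR92b_inhibitor, and 2 higher and 5 lower in the mixture. For the same groups all genes gave 25.7% higher and 25.3% lower, 21.4% and 19.1%, 17.5% and 18.2%, and 21.5% and 21.1%. HSPB1, a small heat shock protein, fell from 104 and 103 CPM to 52.1 and 51.5 CPM in miR3124_mimic (-1.00 ± 0.06, edgeR adjusted p = 3.13e-20), and HSP90AA1, the inducible HSP90, fell from 2988 and 2921 CPM to 1912 and 1881 CPM in the mixture (-0.64 ± 0.04, adjusted p = 1.09e-19). HSP90AA1 was also low in miR200b_mimic (1703.0 and 1514.3 CPM) and miR3124_mimic (2024.5 and 1997.6 CPM), while miR92b_inhibitor held 3206.5 and 3061.8 CPM. HSPA1A, which has a near-identical copy in HSPA1B, was called lower in the mixture (-0.64 ± 0.25, adjusted p = 0.0378), a call lost without miRcontrol library 2 (adjusted p = 0.27, the highest of its alternatives) or without 3-miRNA mixed library 2 (adjusted p = 0.235). The DESeq2 test also ended this call (adjusted p = 0.139).

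Of 8 ATF4 genes, 2 were higher and 5 lower in miR3124_mimic, 3 and 3 with miR200b_mimic, 4 and 1 with miR92b_inhibitor and 6 and 2 in the mixture, next to 25.7% and 25.3%, 21.4% and 19.1%, 17.5% and 18.2%, and 21.5% and 21.1% of all genes. ATF4 itself, which is in this list, held 196 and 194 CPM in miRcontrol, 297 and 307 CPM in miR92b_inhibitor and 248 and 256 CPM in the mixture. It held 151 and 155 CPM in miR3124_mimic and 196 and 190 CPM in miR200b_mimic. DDIT3, the stress factor CHOP, rose from 11.6 and 12.5 CPM to 31.5 and 32.0 CPM in miR92b_inhibitor (1.40 ± 0.10, edgeR adjusted p = 1.71e-15). CHAC1, which degrades glutathione, rose from 3.55 and 2.98 CPM to 5.19 and 5.97 CPM there (0.77 ± 0.19, adjusted p = 0.000902) and to 9.79 and 9.09 CPM in the mixture (1.53 ± 0.17, adjusted p = 2.57e-10). TRIB3, a pseudokinase, rose in miR200b_mimic (0.89 ± 0.06, adjusted p = 4.50e-18), where PHGDH (-1.21 ± 0.07, adjusted p = 3.95e-19) and PSAT1 (-0.91 ± 0.07, adjusted p = 1.95e-15), enzymes of serine synthesis, fell. From 50.43 and 54.31 CPM in miRcontrol, TRIB3 was also higher in the mixture (89.74 and 86.74 CPM) and miR92b_inhibitor (72.94 and 77.08 CPM). In miR3124_mimic it was lower (39.75 and 36.78 CPM). PSAT1 also fell in miR3124_mimic (-0.64 ± 0.07, adjusted p = 1.70e-11) and in the mixture (-0.63 ± 0.06, adjusted p = 1.95e-11).

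The genes whose log2 CPM followed HMOX1 most closely over the 10 libraries were sought among 1412 tested genes with a mean of at least 5 CPM and group means at least 1 log2 unit apart. They were KTI12 (Pearson's r = 0.984), METAP1D (0.981), CD68 (0.981), PLAT (0.980) and PMAIP1 (0.966), and those running opposite were TNFAIP1 (-0.988), SHROOM3 (-0.986), LIPG (-0.984), CARMIL1 (-0.982) and SYNPO (-0.980). These are descriptions over 5 pairs of libraries that share a treatment, and the genes were chosen for the likeness. PLAT, tissue plasminogen activator, held 110 and 117 CPM in miRcontrol, 49.6 and 50.7 CPM in miR200b_mimic and 167 and 174 CPM in miR92b_inhibitor. TNFAIP1, an adaptor of a CUL3 ligase, held 93.5 and 92.3 CPM in miRcontrol, 153 and 154 CPM in miR200b_mimic and 64.6 and 58.9 CPM in miR92b_inhibitor. By Spearman's rho, 3 of the 5 like genes and 2 of the 5 opposite genes were among the leading 5. The other 9 NRF2 pathway genes had group means less than 1 log2 unit apart and did not enter this search.

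Marker genes were checked against the label of the cell line. KRT7, KRT8 and KRT18 were high in every library, KRT5 had at most 9 counts and TP63 at most 2, and SCGB1A1, FOXJ1 and erythroid markers were at or near 0, so several markers of bronchial basal, club and ciliated cells were absent. EPCAM held at most 0.458 CPM and CDH1 at most 0.396 CPM in the miRcontrol, miR3124_mimic and miR92b_inhibitor libraries. In miR200b_mimic EPCAM held 10.2 and 10.1 CPM and CDH1 10.9 and 9.03 CPM. In the mixture they held 5.70 and 5.27 CPM and 2.54 and 1.94 CPM. Nearly all of the epithelial sum given next came from KRT7, KRT8 and KRT18. The summed level of 10 epithelial markers was 2220 to 2268 CPM in miRcontrol, 2774 to 2781 in miR3124_mimic, 4189 to 4270 in miR200b_mimic, 2098 to 2188 in miR92b_inhibitor and 4081 to 4109 in the mixture, and that of 4 mesenchymal markers was 7325 to 7347, 4408 to 4530, 4617 to 4672, 6830 to 6976 and 4969 to 4990 CPM. The markers of a sum did not all move with it: in miR3124_mimic VIM held 827 and 799 CPM against 3894 and 3707 in miRcontrol, while FN1 held 3436 and 3330 CPM against 3181 and 3347, and COL1A1 held 22.7 and 24.9 CPM against 13.0 and 11.0. COL1A1 was also higher in miR200b_mimic, with 36.9 CPM in each library. KRT19, an epithelial marker, held 8.47 and 7.94 CPM in miRcontrol. With 0.615 and 0.905 CPM in miR3124_mimic and 2.49 and 2.74 CPM in the mixture, it went against the direction of the epithelial sum. In miR200b_mimic (13.8 and 15.1 CPM) and miR92b_inhibitor (5.54 and 4.71 CPM) KRT19 moved with that sum. The 2 groups with the lowest HMOX1 thus also had the highest epithelial sums, and the part of this shift in the HMOX1 values was not tested. Of 5 leukocyte markers, CD68 ran in the same order as HMOX1 between these 3 groups, with 26.3 and 27.0 CPM in miRcontrol, 17.3 and 19.8 CPM in miR200b_mimic and 38.8 and 40.7 CPM in miR92b_inhibitor, while PTPRC and MARCO had at most 2 counts and LYZ at most 7 in any library. CD14 held 12.7 and 12.4 CPM in miR3124_mimic and 0.374 to 1.94 CPM in the other groups, and with it the leukocyte sum in miR3124_mimic (36.3 to 36.7 CPM) lay above that of miRcontrol (27.3 to 28.7 CPM), where HMOX1 lay below it. The sum of 3 endothelial markers reached at most 4.78 CPM.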

How the data were processed

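Per the files, the deposited values are raw read counts (whole numbers) for each gene row, 1 file per library, to which the authors applied no normalization. The authors checked paired reads of 100 bases from a directional kit with FastQC and trimmed them with FASTX_Trimmer and BBMap. The reads were mapped with TopHat to GRCh38, per the labels. The counting tool, annotation and strand setting are not given in the sources used here. Each file had 58173 rows, of which 5771 repeated a symbol and were summed. The fit used edgeR 4.0.16 in R 4.3.3 (filterByExpr, RLE factors 0.985 to 1.016, quasi-likelihood, two-sided, all 10 libraries, no covariates, common dispersion 0.000752), and was tested on simulated data. The standard error is the log2 fold change divided by the root of F. The 2 libraries of a group differed by 1.78 to 2.76 times the counting variance (chi-square per degree of freedom). Members and lists were chosen with earlier results of these data known. List genes were named if among the 4 largest called rises or falls of a comparison with a mean of at least 1 CPM. Alternatives were TMM, library totals, DESeq2 1.42.0, the 2 groups alone, no filter, a replicate block and each library left out. Seed words and promoters were read from GENCODE v29 and RefSeq.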

Additional observations from a re-analysis of the deposited data

How the results depend on the processing

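Of 640 values of the 10 genes against miRcontrol under 16 alternatives, 597 stayed the same, 36 lost a call and 7 changed sign. For the 9 tested genes, the same means the same direction and side of the threshold. Only values called in the main fit could lose a call. HMOX1 was not tested there, and its values counted as the same by their direction and a shift within the spread between libraries. HMOX1 ran from -0.39 to -0.25 in miR3124_mimic, -1.77 to -1.36 in miR200b_mimic, 1.09 to 1.23 in miR92b_inhibitor and -0.83 to -0.68 in the mixture. The count of called members in miR92b_inhibitor, 5 of 9, was 3 with the DESeq2 test and 2 to 5 with a library left out, and that in the mixture, 2 of 9, was 1 to 2. The 7 changes of sign concerned values that were not called and came from left-out libraries. With each library left out in turn, the log2 fold change of TXNRD1 in miR200b_mimic ran from -0.0068 (without miR200b_mimic library 1) to 0.0452, that of KEAP1 in miR92b_inhibitor from -0.0051 (without miRcontrol library 2) to 0.0571 and that of SRXN1 there from -0.0162 (without miR92b_inhibitor library 1) to 0.0758. In the mixture NFE2L2 ran from -0.0174 to 0.0216 (below 0 without miRcontrol library 1 or 3-miRNA mixed library 2), GCLC from -0.0994 to 0.0122 (above 0 without miRcontrol library 2) and SRXN1 from -0.132 to 0.0117 (above 0 without 3-miRNA mixed library 2). Libraries with the same replicate number were not paired, since the differences within groups correlated between groups at -0.06 to 0.06 over 10419 genes. With the replicate number as a block, 39 of 40 values kept direction and call, and KEAP1 in miR200b_mimic (-0.12) had an edgeR adjusted p of 0.0522. The median of all genes moved by at most 0.03 on the log2 scale under another scaling. The comparison with the sum has no value in a fit of 2 groups. With 2 libraries per group and 106 to 183 counts for HMOX1 in miR200b_mimic, its lowest level is its least precise.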

Other observations

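Further regulators of the pathway, chosen after their values were seen, also differed from miRcontrol. SQSTM1 (p62), an autophagy adaptor that competes with NRF2 for KEAP1, held 6.53 and 6.03 CPM in miRcontrol, 10.8 and 9.96 CPM in miR92b_inhibitor and 8.63 and 9.52 CPM in the 3-miRNA mixed group. Its log2 fold change was 0.72 ± 0.14 (edgeR adjusted p = 7.66e-05) in miR92b_inhibitor and 0.53 ± 0.15 (edgeR adjusted p = 0.00266) in the mixture, and both calls held in all 16 alternatives. The counting tool and its handling of overlapping genes are not given in the sources used here, so the level of SQSTM1 is uncertain. In miR3124_mimic, with 9.70 and 7.70 CPM, the rise of 0.46 ± 0.15 (edgeR adjusted p = 0.00978) was lost without miRcontrol library 2 (adjusted p = 0.0743) and without miR3124_mimic library 1 (0.29, adjusted p = 0.199, the highest of its alternatives). It was also lost with the DESeq2 test (adjusted p = 0.0592).

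The 3 small MAF genes, whose proteins pair with NRF2 or BACH1, did not run in parallel. MAFK held 40.8 and 37.5 CPM in miRcontrol and rose in miR200b_mimic (53.1 and 58.4 CPM, log2 fold change 0.52 ± 0.07, edgeR adjusted p = 5.42e-08). It also rose in miR3124_mimic (0.39 ± 0.07, edgeR adjusted p = 1.07e-05) and in the mixture (0.405 ± 0.07, edgeR adjusted p = 5.18e-06), as MAFF did. In miR92b_inhibitor MAFK fell to 35.6 and 29.9 CPM (-0.26 ± 0.08, edgeR adjusted p = 0.00611). That fall was lost without miRcontrol library 1 (adjusted p = 0.125) or miR92b_inhibitor library 2 (-0.13, adjusted p = 0.299, the highest of its alternatives). MAFG fell from 88.8 and 91.3 CPM to 67.7 and 71.9 CPM with miR3124_mimic (-0.36 ± 0.05, edgeR adjusted p = 6.07e-08) and to 74.4 and 74.2 CPM in the mixture (-0.28 ± 0.05, edgeR adjusted p = 1.16e-05), where MAFF rose by 0.82 ± 0.07 (edgeR adjusted p = 1.89e-13).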
